A study of Mus musculus with 28 samples.

Results

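The urea cycle genes described here are Nags, Cps1, Otc, Ass1, Asl and Arg1, which encode the enzymes of the cycle and its activator, and Slc25a15 and Slc25a13, which encode its mitochondrial carriers. They were picked out by gene symbol from a deposited table of 18182 genes. All 8 were found, and all 8 passed the filter on low counts that left 14117 genes for testing. The RNA came from hepatocellular carcinoma (HCC) tumours and from the tissue around them in livers of mice whose genotype is written c-Myc/Alb-cre transgenic, that is, a c-Myc transgene together with a Cre recombinase under the promoter of the albumin gene, which is active in hepatocytes. There were 11 Tu_F and 3 Tu_M tumour libraries and 11 Pe_F and 3 Pe_M peritumour libraries. What F and M stand for is not spelled out, and the labels give no age or strain. Every group carries the transgene, and no liver without it or without a tumour was analysed here. Tumour and peritumour libraries were joined into 14 pairs by the code in their titles, taken as the animal. The codes have 2 styles, 1 shared by F pairs 1 to 3 and all M pairs and the other by F pairs 4 to 11.

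The urea cycle turns the ammonia set free by amino acid breakdown into urea, and it runs in full in the liver, mostly in hepatocytes near the portal vein. Its first steps lie in the mitochondrion: N-acetylglutamate synthase (Nags) makes the activator of carbamoyl phosphate synthetase (Cps1), and ornithine transcarbamylase (Otc) joins carbamoyl phosphate to ornithine to give citrulline. In the cytosol argininosuccinate synthetase (Ass1) adds aspartate, argininosuccinate lyase (Asl) releases arginine and fumarate, and arginase (Arg1) splits arginine into urea and ornithine. The ornithine carrier Slc25a15 and the aspartate-glutamate carrier citrin, encoded by Slc25a13, link both compartments. In tumours of several kinds the cycle is known for changes in single enzymes that redirect nitrogen, aspartate or arginine to other uses.

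Each library held between 14777567 and 17576921 estimated counts, and levels are given as counts per 1000000 of that total (CPM). The hepatocyte markers were present in every group, with 7 of 8 markers in the table and a summed level of 24151 to 66104 CPM over the 4 groups. Summed cholangiocyte markers (5 of 5 in the table) ran from 35.6 to 1928 CPM in Tu_F, 34.6 to 187 in Pe_F, 21.8 to 93.5 in Tu_M and 65.4 to 306 in Pe_M, and were highest in the tumour of F pair 2. Summed erythroid markers (7 of 8 in the table) ran from 107 to 1707 CPM in Tu_F, 131 to 1258 in Pe_F, 124 to 275 in Tu_M and 358 to 394 in Pe_M, and were high in both tissues of F pairs 5 and 6, the peritumour tissue of F pair 2 and the tumour of F pair 4. None of these markers was at 0 in every library of a group. Mean pair differences are also given without F pairs 2, 5 and 6, a choice made after the values were seen. The part of other cell types in these differences was not tested. Changes are log2 fold changes with their standard error (SE), and p-values are from edgeR's quasi-likelihood test adjusted by Benjamini-Hochberg over all 14117 genes, with a call at an adjusted p under 0.05. The test was run without the pairs and with the pair as a block. Without the pairs all libraries are taken as independent, although both tissues of a pair are taken to come from the same animal. The block removes what both libraries of a pair share, so its test sets the mean change against the spread of the pair differences. The estimate of that spread is partly shared across genes.

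The members covered a wide range of transcript levels. Compared per transcript length, in the deposited length-scaled unit TPM, Ass1 was the most abundant in 28 of 28 libraries, with a median of 3818 TPM and a range of 1495 to 6322 TPM, and it ranked 24 among all genes. Arg1 (median 977 TPM) and Cps1 (median 786 TPM) came next, and Arg1 was the higher of them in 16 of 28 libraries, so their order was not the same across libraries. Asl followed with a median of 283 TPM, below Cps1 in 28 of 28 libraries. Otc, at a median of 155 TPM, was below Asl in 27 of 28. The carriers were close to each other: Slc25a13 had a median of 113 TPM and Slc25a15 a median of 105 TPM, and Slc25a13 was the higher in 17 of 28 libraries. Nags, whose product only makes the activator, was the lowest with a median of 55.8 TPM, and it was below Slc25a15 in 27 of 28 libraries. The ranges of neighbours in this order overlapped throughout. Summed, the 8 members took 0.296% to 0.845% of a library's TPM.

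**Figure D1:**
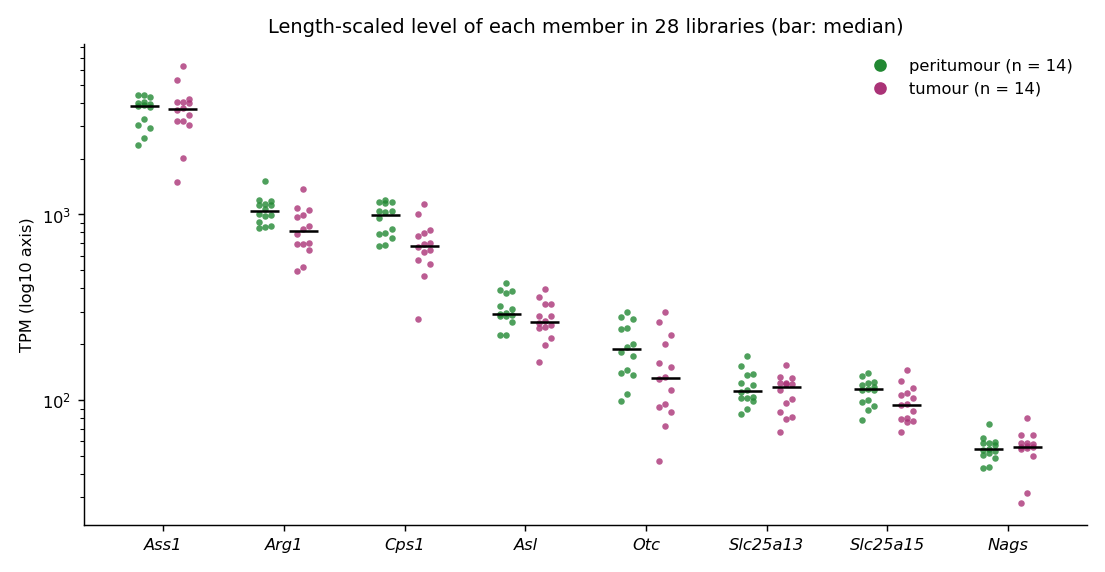
TPM (log10 axis) of each member in the 14 peritumour and 14 tumour libraries, with each point a library and each bar a median. Ass1 lies above all other members in every library, and neighbours such as Arg1 and Cps1 share most of their range.

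In tumours the transcripts of Cps1, Otc and Arg1 were lower than in the matched peritumour tissue in most or all pairs, while those of Ass1 and Nags lay on both sides. Without the pairs 0 of 8 members were called, beside 1.05% of all tested genes (0.241% lower and 0.808% higher), and 2 of the 8, Cps1 and Otc, had an unadjusted p under 0.05, as had 2672 of all genes. With the pair as a block 3 of 8 were called lower, Cps1, Otc and Arg1, and 0 higher, beside 5.91% of all genes called lower, 5.59% called higher and 11.5% in either direction. The median change of the members with the block was -0.22 on the log2 scale, against -0.01 over all tested genes. These are whole pieces of tissue, so fewer hepatocytes and less RNA per hepatocyte cannot be told apart.

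Cps1 makes carbamoyl phosphate, the entry of ammonia into the cycle. Its level ran from 890 CPM through a median of 2429 to 3942 CPM in the 14 tumour libraries. In the 14 peritumour libraries it ran from 2356 CPM through 3318 to 4124 CPM. The groups overlapped, but 6 tumour libraries lay below every peritumour library, and the tumour was the lower in 13 of 14 pairs. The exception was F pair 10, with 2356 CPM in peritumour and 2436 CPM in tumour tissue. The change was -0.45 ± 0.17 (SE) without the pairs (edgeR adjusted p = 0.139). It was -0.51 ± 0.14 with the block (edgeR adjusted p = 0.0239), a fold of 0.700. Without F pairs 2, 5 and 6 the mean pair difference was -0.28 (SD 0.225, n = 11), against -0.48 (SD 0.474) over all 14 pairs. The block called Cps1 in that set. Those pairs were left out after the values were seen and held the lowest differences of Cps1 (-1.18, -1.66 and -0.81). Leaving them out could thus only raise the mean, and it also lowered the SD, so the call is no independent check.

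Otc, a gene on the X chromosome (chrX:10252296-10321024, GRCm38, plus strand), encodes the step after Cps1. Its level in tumours ran from 62.6 CPM through a median of 178 to 417 CPM, and in peritumour tissue from 137 CPM through 271 to 414 CPM. The ranges overlapped over most of their length, and within pairs the tumour was lower in 12 of 14. The change was -0.45 ± 0.18 (SE) without the pairs (edgeR adjusted p = 0.17) and -0.51 ± 0.13 with the block (edgeR adjusted p = 0.0215). The mean pair difference was -0.47 (SD 0.481) over all 14 pairs and -0.32 (SD 0.315, n = 11) without F pairs 2, 5 and 6. Otc also differed with the code style, a split looked at after the values were seen and not tested: the F peritumour libraries of the first style had 383 CPM ± 32.7 (SD, n = 3) and those of the second 210.1 CPM ± 58 (SD, n = 8). The tumour libraries of F followed the same order, with 256 CPM ± 71.9 (SD, n = 3) and 144 CPM ± 53.9 (SD, n = 8). What the code style stands for is not given. It was a covariate in the fits without the block, and with the block the pair terms took its place.

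Nags, the third mitochondrial enzyme gene, had 33.5 to 114 CPM in tumours with a median of 70.8, and 53.2 to 95.4 CPM in peritumour tissue with a median of 69.4. The groups overlapped and their medians lay close together, with the tumour lower in 6 of 14 pairs. Its change was 0.02 ± 0.16 (SE) without the pairs and -0.04 ± 0.13 with the block (edgeR adjusted p = 0.968 and 0.851). The mean pair difference was -0.01 over all 14 pairs and 0.13 (SD 0.275, n = 11) without F pairs 2, 5 and 6, so its sign differed between them. The lowest tumour value was that of F pair 2 and the highest that of F pair 11.

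Arg1, the last enzyme of the cycle, was lower in the tumour of 14 of 14 pairs. Its level ran from 405 CPM through a median of 746 to 1150 CPM in tumours and from 692 CPM through 915 to 1239 CPM in peritumour tissue. The groups overlapped, with 6 tumour libraries below every peritumour library and 0 above. The smallest difference was that of M pair 1, from 856 to 850.2 CPM, and the largest that of F pair 2, from 914 to 405 CPM. The change was -0.34 ± 0.17 (SE) without the pairs (edgeR adjusted p = 0.273) and -0.39 ± 0.10 with the block (edgeR adjusted p = 0.0241), a fold of 0.762. With single pairs left out in turn, the change with the block stayed between -0.42 and -0.30, and the edgeR adjusted p was 0.0518 without M replicate 2. For Cps1 the change stayed between -0.56 and -0.42, and the edgeR adjusted p was 0.0515 without F replicate 8. Without F pairs 2, 5 and 6 the mean pair difference of Arg1 was -0.28 (SD 0.210, n = 11), against -0.36 over all 14 pairs.

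Ass1 ties citrulline to aspartate. In tumours its level ran from 1338 CPM through a median of 3497 to 6786 CPM, and in peritumour tissue from 2203 CPM through 3636 to 4186 CPM. Tumour libraries lay both below and above the whole peritumour range, and the coefficient of variation was 36.8% in tumours and 19.1% in peritumour tissue. The tumour was the lower in 5 of 14 pairs. The change was 0.06 ± 0.20 (SE) without the pairs and -0.05 ± 0.15 with the block (edgeR adjusted p = 0.892 and 0.866). The mean pair difference was -0.02 (SD 0.514) over all 14 pairs. Without F pairs 2, 5 and 6 it was 0.20 (SD 0.272, n = 11), higher in 9 of 11 pairs. Those pairs were left out after the values were seen and held the lowest differences of Ass1 (-1.19, -0.84 and -0.39). Leaving them out could thus only raise the mean.

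Asl, which splits argininosuccinate, had 140 to 405 CPM in tumours (median 237) and 198 to 378 CPM in peritumour tissue (median 265). The change was -0.20 ± 0.16 (SE) without the pairs and -0.22 ± 0.13 with the block (edgeR adjusted p = 0.521 and 0.266), and the tumour was lower in 9 of 14 pairs. The ornithine carrier gene Slc25a15 had 137 to 301 CPM in tumours (mean 208) and 173 to 285 CPM in peritumour tissue (mean 236). Its change of -0.23 ± 0.10 with the block did not pass (edgeR adjusted p = 0.152), with the tumour lower in 9 of 14 pairs. The citrin gene Slc25a13 had 142 to 300 CPM in tumours (median 216) and 169 to 317 CPM in peritumour tissue (median 213), a change of -0.13 ± 0.10 with the block (edgeR adjusted p = 0.403). Without F pairs 2, 5 and 6 the mean pair difference went from -0.19 to -0.05 (SD 0.275, n = 11) for Asl, from -0.19 to -0.11 (SD 0.210) for Slc25a15 and from -0.10 to -0.02 (SD 0.236) for Slc25a13. For these 3 members the groups overlapped over most of their range. Their mean differences over all pairs were smaller in size than the SD between pairs, as was that of Otc.

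**Figure D2:**
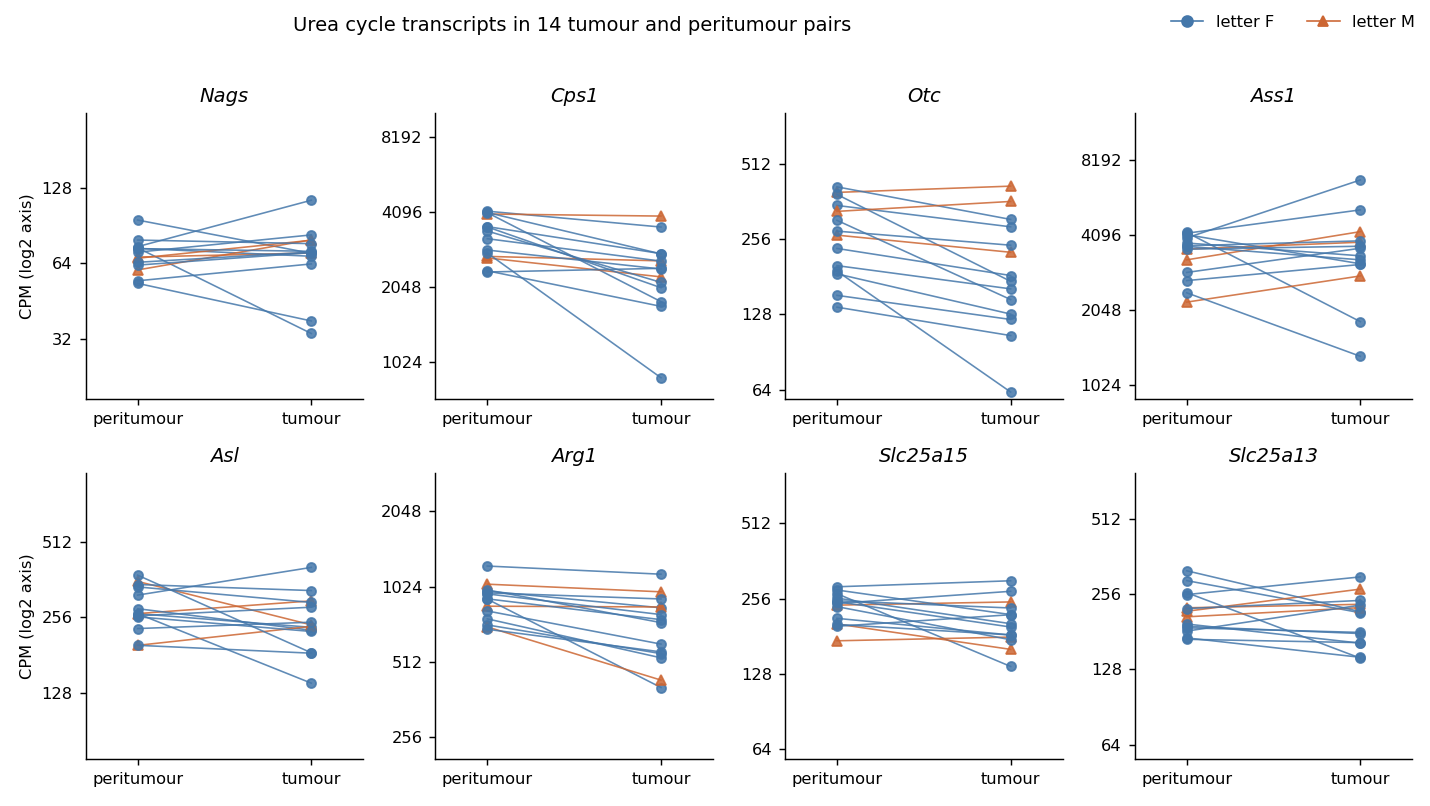
CPM (log2 axis) of each member in peritumour and tumour tissue, with a line for each of the 14 pairs, F in blue and M in orange. The lines of Arg1 all go down, those of Cps1 go down in 13 of 14 pairs, and those of Ass1 and Nags go both ways.

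For Cps1, Otc and Arg1 the fitted changes with the block were larger in size in F than in M. That contrast is tested further below and is partly confounded with code style. The change in F was -0.62 ± 0.15 (SE) for Cps1, -0.63 ± 0.13 for Otc and -0.41 ± 0.12 for Arg1 (edgeR adjusted p = 0.0193, 0.0107 and 0.0405). These were 3 of 8 members called, all lower, beside 5.23% of all genes called lower, 4.6% called higher and 9.84% in either direction. Without the pairs 0 of 8 were called in F, beside 0.312% of all genes in either direction, 0.0496% lower and 0.262% higher. Otc was lower in the tumour of 11 of 11 F pairs, from 62.6 to 307 CPM (median 162) in Tu_F and from 137 to 414 CPM (median 235) in Pe_F. Without F pairs 2, 5 and 6 Cps1 (-0.33) and Otc (-0.42) were called in F with the block. Arg1 was not called there (-0.26, edgeR adjusted p = 0.0833), nor with no filter on low counts or within either code style alone. The pairs were left out after the values were seen. They held the lowest differences of Cps1, and F pairs 5 and 2 held the lowest of Otc. With single pairs left out in turn Arg1 was called in 6 of 14 fits, with a change of -0.45 to -0.30.

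The M pairs are 3, so each value is given. For Otc the peritumour libraries of M replicates 1, 2 and 3 had 394, 330.5 and 266 CPM and the tumour libraries 417, 362 and 227 CPM, so 1 of 3 pairs was lower in the tumour. Cps1 had 4019, 2681 and 2719 CPM in peritumour tissue and 3942, 2252 and 2610 CPM in tumours, lower in all 3 pairs. Arg1 had 856, 708 and 1049 CPM in peritumour tissue and 850.2, 434 and 977 CPM in tumours, also lower in all 3, with M pair 2 giving most of it. The groups overlapped for each of the 3 genes. With the block the changes in M were -0.05 ± 0.25 (SE) for Otc, -0.15 ± 0.28 for Cps1 and -0.31 ± 0.23 for Arg1.

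With 3 M pairs, 0 of 8 members were called in M with or without the block, as were 0% of all genes, although 1361 genes had an unadjusted p under 0.05 with the block. The difference of the tumour effect between M and F was tested directly. For Otc it was 0.59 ± 0.29 (SE) with the block, with an unadjusted edgeR p of 0.058 and an adjusted p of 0.688. It was 0.46 ± 0.32 for Cps1 and 0.10 ± 0.26 for Arg1 (edgeR adjusted p = 0.718 and 0.919). All M pairs have the first code style and most F pairs the second, and the model held no tumour effect of code style. Letter and code style can thus not be fully told apart in this contrast. None of the 8 passed with or without the block, and no other gene did, beside 1001 genes at an unadjusted p under 0.05 with the block. Between M and F within a tissue 0 of 8 members were called either, beside 0.0283% of all genes in each tissue. Otc in M against F was -0.12 ± 0.34 (SE) in peritumour tissue and 0.43 ± 0.34 in tumours.

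**Figure D3:**
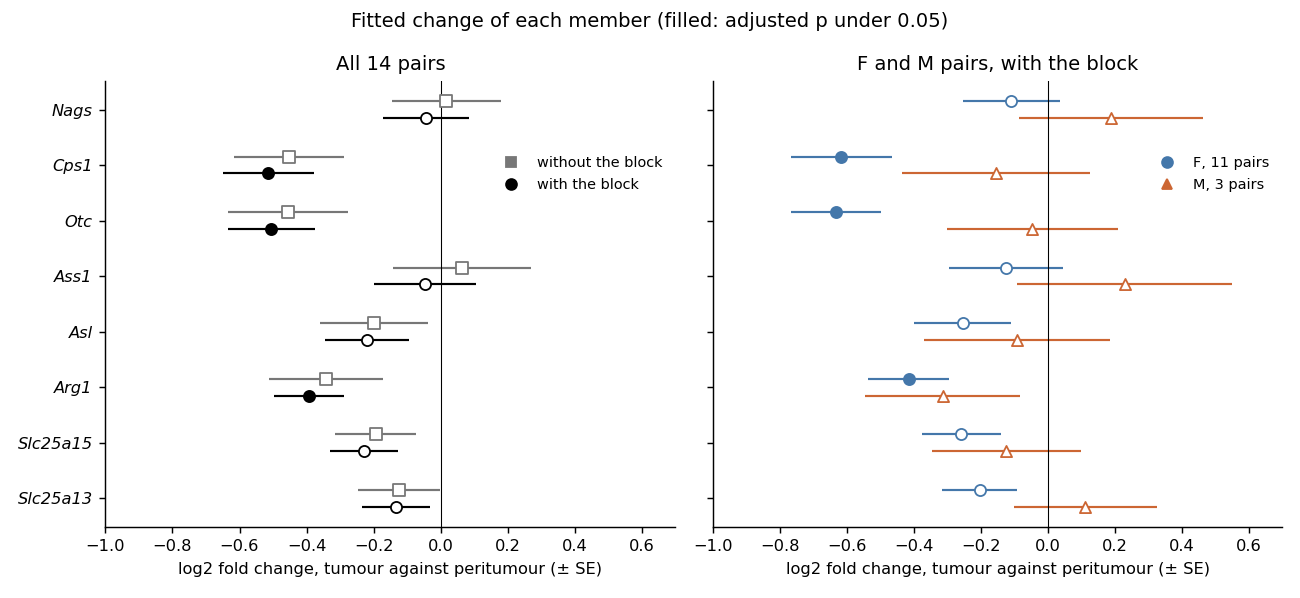
Fitted log2 fold change of each member, tumour against peritumour, with bars of 1 SE and filled symbols for an adjusted p under 0.05. In the left panel Cps1, Otc and Arg1 are filled with the block and no member without it, and in the right panel the same 3 are filled in F and none in M.

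The members did not change by the same amount in each pair. All 8 were lower in the tumour in 3 of 14 pairs, F pairs 2, 3 and 5, and 4 or fewer were lower in 5 pairs. In F pair 2 the members differed by -1.19 to -0.87. Its hepatocyte markers differed by -0.95 (median), its periportal markers by -1.11 and its pericentral markers by 0.05, and the summed cholangiocyte markers went from 128 to 1928 CPM. In that pair the members thus moved with the hepatocyte and periportal markers. The median difference over all tested genes in it was 0.36, and pair differences are relative to the library total with no TMM factor. The parts of cell composition and of scaling in it were not tested.

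F pair 5 was uneven. Cps1 went from 2805 to 890 CPM and Otc from 191 to 62.6 CPM, differences of -1.66 and -1.60, whereas the smallest difference among the members was -0.10. The hepatocyte markers of this pair differed by 0.31, its periportal markers by -0.41 and its pericentral markers by -0.63 (medians). The summed cholangiocyte markers went from 34.6 to 144 CPM and the summed stellate cell and fibroblast markers from 475 to 1286 CPM. The genes of the latter list did not move as a set. Lrat was lower in the tumour in 14 of 14 pairs, this one included. Over all pairs 3 of its 6 genes were called lower with the block and 1 higher. The part of cell composition was not tested. In F pair 11 the members went opposite ways: Otc went from 304 to 147 CPM (-1.05) while Ass1 went from 3980 to 6786 CPM (0.77). Each of these is a single pair with no replicate.

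**Figure D4:**
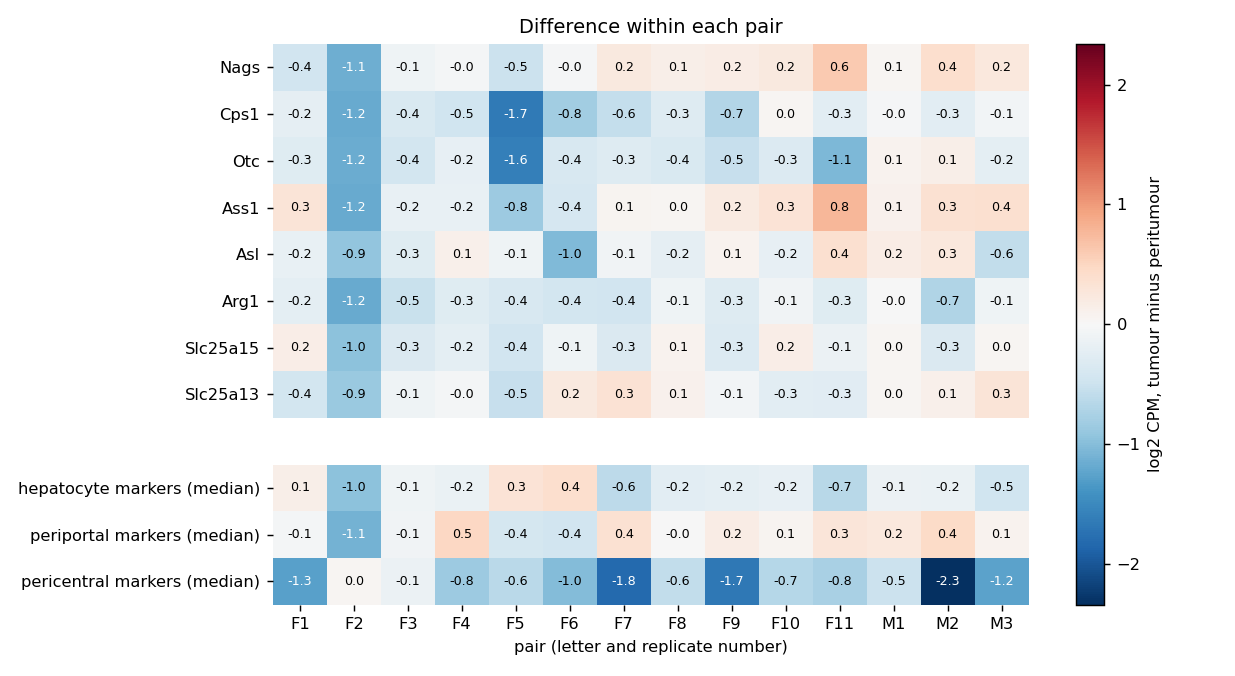
Difference of log2 CPM (prior count 2), tumour minus peritumour, for each member and pair, above the median difference of 3 sets of hepatocyte markers in the same pair. Blue is lower and red higher in the tumour. The column of F pair 2 is blue for every member, and those of F pair 5 and F pair 11 are uneven.

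Set against the hepatocyte markers, the members spread to both sides. The median difference of these markers was lower in the tumour in 11 of 14 pairs, with a median over pairs of -0.17. After subtracting it, Otc was still lower in 10 of 14 pairs (mean -0.25, SD 0.573), Cps1 in 9 (mean -0.26, SD 0.638) and Arg1 in 8 (mean -0.14, SD 0.384). Nags and Ass1 were each above it in 9 of 14 pairs, with means of 0.20 (SD 0.574 and 0.652). These means are smaller than their SD over pairs. Over the lists, 2 of 7 hepatocyte markers, Alb and Cyp3a11, were called lower with the block, 1 of 8 periportal markers, Pck1, and 8 of 9 pericentral markers, and 0 of any of these were called higher. Among cholangiocyte markers 0 of 5 were called in either direction.

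As a description over the 14 pairs, which share libraries and depth among the genes, the differences of the members went together to varying degrees. Spearman's rho between members ran from -0.10 to 0.82 with a median of 0.40, and 26 of 28 combinations were above 0. The closest were Arg1 with Slc25a15 (rho 0.82), whose products act on ornithine in turn, Nags with Ass1 (rho 0.82) and Cps1 with Ass1 (rho 0.76). Without F pairs 2 and 5 the median was 0.19, with 18 of 28 above 0, so much of this rested on those pairs.

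Ratios between members within a library do not depend on library depth. They were chosen after the values were seen and are given with no test. The ratio of Ass1 to Cps1 in TPM was higher in the tumour in 13 of 14 pairs, with a median of 3.82 in peritumour tissue (2.85 to 5.63) and 5.29 in tumours (3.54 to 10.1). The mean log2 difference was 0.46 (SD 0.301, n = 14). The exception, F pair 2, had 3.76 and 3.73, and the highest tumour ratio was that of F pair 11. Otc to Cps1, the ratio of consecutive mitochondrial steps, was higher in 8 of 14 pairs and lower in 6, with a mean log2 difference of 0.01 (SD 0.319). Cps1 to Nags was lower in the tumour in 13 of 14 pairs (mean -0.47, SD 0.391), and Arg1 to Ass1 was lower in 12 of 14 (mean -0.34, SD 0.405).

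**Figure D5:**
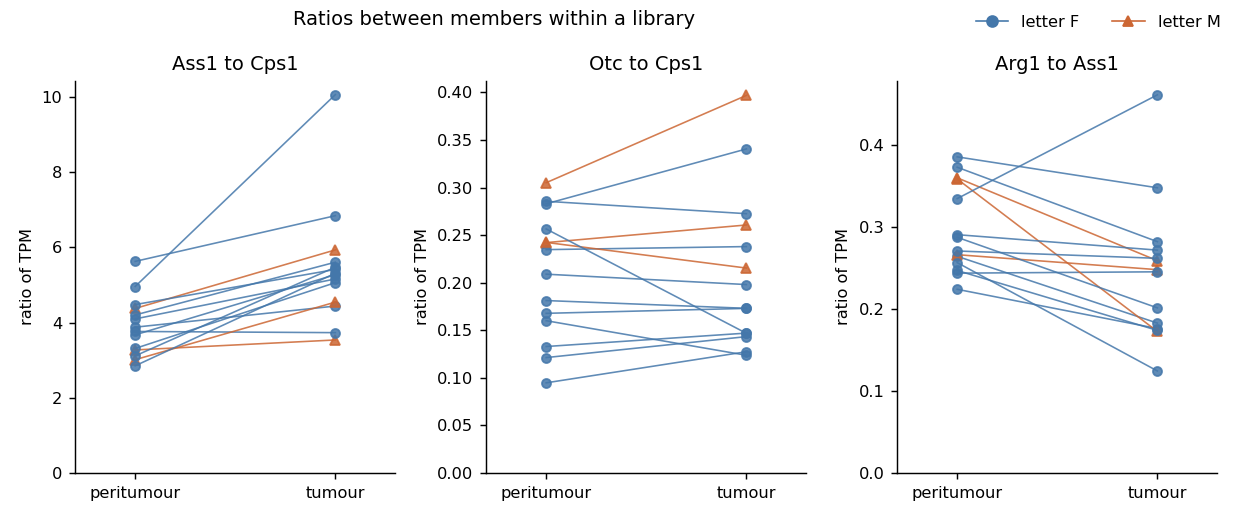
Ratios of TPM between members in peritumour and tumour tissue, with a line for each of the 14 pairs, F in blue and M in orange. Ass1 to Cps1 is higher in the tumour in 13 of 14 pairs, Otc to Cps1 goes both ways, and Arg1 to Ass1 is lower in 12 of 14.

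Genes around the cycle were read from lists, with the block, beside the same 5.91% lower and 5.59% higher over all genes. Of 23 genes of ammonia and glutamine handling 5 were called lower and 0 higher, and 0 were called without the pairs. Aqp9, a channel for glycerol and urea in hepatocytes, was the clearest, at 159 CPM ± 54.4 (SD) in peritumour and 95.4 CPM ± 38.9 in tumour tissue (n = 14 each), a change of -0.82 ± 0.13 (SE), lower in 14 of 14 pairs (edgeR adjusted p = 0.00206). Car5a, the mitochondrial carbonic anhydrase that supplies bicarbonate to Cps1, fell by 1.12 ± 0.23 (edgeR adjusted p = 0.00697). The ammonia transporter gene Rhbg (-0.72) and the glutamate transporter gene Slc1a2 (-0.94), both also pericentral markers, and glutamate dehydrogenase (Glud1, -0.29) were the others. Glutamine synthetase (Glul) did not pass, at -0.29 ± 0.12 (edgeR adjusted p = 0.111).

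Of 22 tested genes of arginine, ornithine, proline and polyamine metabolism 2 were called lower. Ornithine aminotransferase (Oat, -0.73) and agmatinase (Agmat, -0.38) were lower. Aldh18a1, which encodes an enzyme of proline synthesis, rose. Aldh18a1 had 35.4 CPM ± 9.32 (SD) in peritumour and 55.2 CPM ± 18.4 in tumour tissue, a change of 0.57 ± 0.12 (SE) with the block (edgeR adjusted p = 0.00862), and 0.61 without it (0.0391). It was higher in 12 of 14 pairs.

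Of 6 genes of pyrimidine synthesis and salvage, 1 was called lower (Cmpk1, -0.29) and 1 higher (Uck2, 0.34). Synthesis, but not salvage, uses carbamoyl phosphate made by Cad. Cad itself was higher in 13 of 14 pairs but did not pass (0.25 ± 0.09, edgeR adjusted p = 0.0914). Of 15 amino acid breakdown genes 4 were called lower and 0 higher: tyrosine aminotransferase (Tat, -0.79, in 14 of 14 pairs), Hpd (-0.68), Tdo2 (-0.62) and Aass (-0.50). Of 13 regulators of the cycle 0 were lower and 1 was higher, the tumour suppressor Trp53, at 0.38 ± 0.07 with the block and 0.39 without it (edgeR adjusted p = 0.00533 and 0.0471). Hnf4a, a main hepatocyte transcription factor, had a change of 0.00 ± 0.11 (edgeR adjusted p = 0.997).

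For each member the 3 genes whose pair differences were most like its own were sought among 9129 genes with a mean of at least 10 CPM, by Spearman's rho over the 14 pairs. For Cps1 they were Upp2 (rho 0.92), Tbck (0.92) and Glyat (0.87), and for Otc they were Man1a (0.94), Ppargc1a (0.92) and Thrb (0.91). Glyat and Thrb were also called lower with the block, at -0.84 and -0.45. For Arg1 they were Cdo1 (0.88), Aldh1a7 (0.87) and Rnf125 (0.85). For Ass1 they were Dmgdh (0.91), Mecr (0.89) and Tmem177 (0.87), for Asl Tmem86b (0.93), Cyp2f2 (0.89) and Khk (0.88), and for Nags Emc6 (0.95), Slc25a39 (0.94) and Sars2 (0.94). For the carrier Slc25a15 they were Lyplal1, Deptor (both 0.88) and Ctsl (0.87), and for Slc25a13 Mrps35 (0.95), Immt (0.94) and Arl8b (0.93). No gene was listed for more than 1 member. Being the highest of 9129 values, these are selected and carry no test.

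The windows around transcript starts were read from RefSeq (GRCm38.p6), 250 bases before to 50 after a start. Entries existed for 5 members, Nags, Otc, Ass1, Slc25a15 and Slc25a13, with 6 windows in all. Both strands were searched for the letters CACGTG (an E-box of the kind that Myc and its partner Max bind), TTGCNNAA (C/EBP), CAAAGTNCA (HNF4), CCAAT and TATAAA. The E-box letters were in 3 of these 6 windows and in 7.15% of all 32851 windows. The matches are shown because the tumours carry a c-Myc transgene, with the E-box in capitals and 12 bases to each side, 5′ to 3′ on the strand of the gene:
Ass1, chr2:31470222-31470251, plus strand: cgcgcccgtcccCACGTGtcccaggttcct
Slc25a13, chr6:6217281-6217310, minus strand: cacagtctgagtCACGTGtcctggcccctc
Slc25a15, chr8:22398337-22398366, minus strand: cgccctgccgcaCACGTGccgcggctccgg

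The E-box began 36 bases before the RefSeq start in Ass1, 125 bases before it in Slc25a13 and 77 bases before it in the second window of Slc25a15. The deposited gene spans of Ass1 (from position 31470122 of chromosome 2) and Slc25a15 (to position 22398621 of chromosome 8) begin further upstream, so both of those matches lie inside the span. None of the 3 genes was called in any comparison. Slc25a13 also held CCAAT, 22 bases before the start, a motif of 37.4% of all windows. TTGCNNAA is in 10.8%, CAAAGTNCA in 1.41% and TATAAA in 13.6% of all windows, and none of the 5 motifs was found in the windows of Otc or Nags. A match is a description of letters and no evidence of binding. The bases before the deposited start of Otc, the member with the largest fitted change in F, are shown in lower case because they hold none of the motifs:
Otc, chrX:10252055-10252295, plus strand: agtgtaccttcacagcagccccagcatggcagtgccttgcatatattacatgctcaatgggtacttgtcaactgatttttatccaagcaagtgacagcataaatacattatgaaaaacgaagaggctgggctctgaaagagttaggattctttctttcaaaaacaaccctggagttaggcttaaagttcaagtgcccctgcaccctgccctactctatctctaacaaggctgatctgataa

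The authors' deposited table gives its own log2 fold change for tumour against peritumour: -0.44 for Cps1, -0.40 for Otc and -0.31 for Arg1. In the authors' deposited table the other members have -0.17 (Slc25a15), -0.16 (Asl), -0.09 (Slc25a13), 0.03 (Nags) and 0.06 (Ass1), so the order of the members is close to that of the fit without the pairs. The calls differ: the authors' DEGseq q-values are under 0.05 for every member except Nags (0.0821), with 1.08e-138 for Ass1. The fit without the pairs called no member.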

How the data were processed

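Total RNA from tissue was extracted, mRNA was selected with oligo(dT) beads and cDNA was primed with random hexamers, per the labels' protocols. The submitters' processing notes name RSEM 1.2.12, HISAT2 2.0.4, DESeq2 1.4.5 and Bowtie2 2.2.5 but give no role for any of them. How strand was handled was not stated in any source used, and a gene's antisense reads may be part of its count. The authors deposited estimated counts and TPM for each gene and library, per the file headers, and their own log2 fold changes and q-values. Of the estimated counts 8.06% are not whole, and they were rounded. Coordinates are those of the deposited table (GRCm38). CPM is relative to the library total, and pair differences use log2 CPM with a prior count of 2.

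The members and gene lists were chosen with earlier results of these data known. Tests used R 4.3.3 with edgeR 4.0.16 (filterByExpr, TMM factors of 0.809 to 1.36, robust quasi-likelihood fit, Benjamini-Hochberg adjustment). The tissue comparison took all 28 libraries, with letter and code style in the model, and the other contrasts came from a model of 4 groups with code style. These covariates were in the fits without the block, and with the block the pair terms took their place. The model of the tissue comparison was tested on simulated data, with and without the block, and the model of 4 groups was not. Named list genes were those called with or without the block, up to the 4 of smallest adjusted p per list and direction. Slc1a2, also called lower, is named beyond that limit, and Glul, Cad and Hnf4a were added after their values were seen. 1 result of these lists is not reported here.

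Pairs rest on the shared title code. In every pair the deviations of both libraries from their group means were correlated over genes (0.134 to 0.606, median of other combinations -0.0149), and 10 of 14 tumours correlated best with their own peritumour library. The biological coefficient of variation was 0.381 without and 0.27 with the block. Alternatives were library size alone, DESeq2 1.42.0, no filter, each code style alone, no covariates, each letter alone, each pair left out, and, chosen after seeing the data, leaving out F pairs 2, 5 and 6.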

Additional observations from a re-analysis of the deposited data

How the results depend on the processing

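Without the replicate block 0 of 8 members were called in any comparison, under any alternative run. Over all genes, tumour against peritumour called 148 genes without the block and 1624 with it. Without the block it called 210 with library size alone, 622 with DESeq2, 64 with no filter and 0 without F replicate 1. The counts of members that follow are given without the share of all genes called in the same run. With the block, tumour against peritumour gave 3 called members (Cps1, Otc and Arg1), and 3 with library size alone, with DESeq2, with no filter and without F pairs 2, 5 and 6, but 1 (Otc) in the second code style alone and 0 in the first alone. In F it gave 3, and 3 with library size alone, with DESeq2 and with the F libraries alone, 2 (Cps1 and Otc) with no filter and without F pairs 2, 5 and 6, 1 in the second code style alone and 0 in the first. When each pair was left out in turn, both counts ran from 0 without the block to 3 with it, and with the block from 2 to 3. In M and in the difference between M and F the block called 0 members under every alternative run. Arg1 in F with the block was not called without F replicate 3, 5, 6, 7, 8, 9 or 10 or M replicate 3.

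Ass1 and Nags changed sign, in no case with a call. For tumour against peritumour with the block the changes of Nags and Ass1 were -0.044 and -0.047. They were -0.0096 and -0.012 with library size alone, -0.045 and -0.047 with DESeq2, -0.037 and -0.040 with no filter, and -0.23 and -0.10 in the first code style. In that style without the block they were -0.19 and -0.027, and Ass1 was -0.00011 in the second style with it. In F, Ass1 with the block was -0.12, with library size alone -0.091, with DESeq2 -0.12, with no filter -0.12, with F libraries alone -0.13, in the first code style -0.45 (-0.26 without the block) and in the second -0.00011. Nags in F was 0.17 in the second style and 0.14 without F pairs 2, 5 and 6, and 0.10 and 0.11 with the block. Otc in M was 0.023 with library size alone, and the Arg1 difference between M and F was -0.011 without F pairs 2, 5 and 6, -0.050 with the block. With single pairs left out, with or without the block, Nags ran from -0.11 to 0.11 and Ass1 from -0.12 to 0.15 over both letters, Nags from -0.20 to 0.083 and Ass1 from -0.23 to 0.13 in F, Otc from -0.12 to 0.13 in M, and the Arg1 difference from -0.054 to 0.31. The causes of these changes were not tested.

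Analyses of M rest on 3 pairs, and contrasts involving M could not be fitted in the second code style, which has no M library. The lowest value of any member in a library was 33.5 CPM, for Nags.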
